A study of Mus musculus with 6 samples.

Results

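The genes described here are the mouse Fc gamma receptors Fcgr1, Fcgr3, Fcgr4 and Fcgr2b and the signalling chain Fcer1g. They were taken by symbol from a list of 5 genes, and all 5 were present among the 17091 genes of the deposited table. The libraries came from the dissected lateral wall of the cochlea (the stria vascularis and spiral ligament on the outer side of the cochlear duct) in mice of the inbred strain CBA/CaJ. The 3 old mice were 2.5 years of age and the 3 young mice were 2 months of age, and no treatment or transgene is given for either group. Each library held the pooled RNA of both cochleas of 1 mouse. The study's title asks for molecular changes of this tissue with age, and the members are compared here as activating receptors and chain against the inhibitory receptor.

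Fc gamma receptors bind the constant part of IgG antibodies on the surface of macrophages and other leukocytes. Fcgr1 is the high-affinity receptor, Fcgr3 and Fcgr4 are activating receptors of lower affinity, and all of these signal through Fcer1g, a small membrane chain whose tail carries an activation motif (ITAM) that is phosphorylated by Src-family kinases and then binds the kinase Syk. Fcgr2b is the inhibitory receptor: its own tail carries an inhibitory motif (ITIM) that recruits the lipid phosphatase SHIP1, encoded by Inpp5d, and it is also found on B cells and on some sinusoidal endothelium. NK cells carry Fcgr3, and macrophages of the cochlea lie along strial vessels and among the fibrocytes of the spiral ligament.

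Each value is a normalised read count: the authors scaled each library's reads by its own size factor. The libraries held 37577315 to 39103397 reads in old mice and 37055355 to 38179961 reads in young mice. All 14 of 14 lateral wall markers, such as Kcnq1 and Coch, were in the table, with summed counts of 1005270 to 1330380 in old and 1500410 to 1654850 in young libraries. Coch alone averaged 495979 counts in old and 787547 in young mice, and Otos 46735 and 151382. By limma, 1 of the 14 (Otos) was lower in old at an adjusted p under 0.05, and the list's median log2 fold change was −0.18. The estimates of Tyr (0.54) and Esrrb (0.82) were above 0. Titles and tissue labels say lateral wall, and the source label says auditory nerve cells for every sample. Old replicate 3 stood apart from the rest in Xist, transcribed from an inactive X chromosome, with a normalised count of 45.2 against 24382 to 29162 in the other 5 libraries, and the labels give no sex. Values of the members without that library are given below.

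The sequences around the receptors' start sites are shown first, as a description. Whether they bear on the differences with age was not tested. The first listed RefSeq start of each gene was used. The windows of Fcgr3 and Fcgr2b lie inside their GENCODE genes, which reach upstream to chr1:171064935 and chr1:170976547. Each line gives the 120 bases before the RefSeq start, from RefSeq on GRCm38.p6, 5′ to 3′ on the gene's own strand. The reference is not the CBA/CaJ strain. Capitals mark GAGGAAG on either strand (read as CTTCCTC on the other), the core bound by the myeloid factor PU.1, and further TTCNNNGAA, the form of a gamma-activated site, in Fcgr1 and an interferon response element form, GAAA repeated after a gap of 2 bases, in Fcgr4. The windows lie on the minus strand except that of Fcgr4, at chr3:96293970-96294089 (Fcgr1), chr1:171059404-171059523 (Fcgr3), chr1:171018806-171018925 (Fcgr4), chr1:171234350-171234469 (Fcer1g) and chr1:170976072-170976191 (Fcgr2b).
Fcgr1: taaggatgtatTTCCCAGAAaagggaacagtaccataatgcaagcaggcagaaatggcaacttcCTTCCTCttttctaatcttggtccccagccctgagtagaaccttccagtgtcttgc
Fcgr3: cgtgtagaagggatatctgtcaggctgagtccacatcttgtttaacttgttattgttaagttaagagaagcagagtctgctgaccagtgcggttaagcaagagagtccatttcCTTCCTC
Fcgr4: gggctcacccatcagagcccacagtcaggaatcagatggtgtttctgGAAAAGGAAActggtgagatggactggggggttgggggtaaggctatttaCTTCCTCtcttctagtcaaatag
Fcer1g: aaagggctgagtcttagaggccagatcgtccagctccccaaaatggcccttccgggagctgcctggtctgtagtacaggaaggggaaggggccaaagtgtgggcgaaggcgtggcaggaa
Fcgr2b: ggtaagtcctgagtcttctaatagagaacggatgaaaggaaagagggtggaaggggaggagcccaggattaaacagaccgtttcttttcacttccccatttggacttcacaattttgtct

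Patterns were sought on both strands of each window from 250 bases before to 50 after the start. GAGGAAG was found in Fcgr1, Fcgr3 and Fcgr4, first at 56, 7 and 23 bases before the start, and in 13.63% of all 32851 promoter windows. It was not found in the windows of Fcer1g and Fcgr2b. TTCNNNGAA began 109 bases before the start of Fcgr1 and occurs in 8.298% of all windows, and the repeated GAAA began 73 bases before the start of Fcgr4 and occurs in 3.443%. GGAAGT, which shares most of its bases with GAGGAAG in Fcgr4, was found in Fcgr1, Fcgr4 and Fcgr2b and in 23.77% of all windows. CATGTG was found in Fcgr1, after its start, and in 14.15% of windows. TTNCGNAA and TGACTCA were found in 0 of the 5 windows, against 2.469% and 5.202% of all windows. These are matches of letters, not measured binding.

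The opposite roles of the chain and of Fcgr2b lie in their tails, whose motif codons are shown from GENCODE M21 transcripts on GRCm38. Capitals mark the tyrosine codons that the kinases act on. The Fcer1g stretch spans chr1:171229889-171230072 (minus strand, with an intron left out) and starts at codon 65 of 86. The Fcgr2b stretch spans chr1:170961071-170961088 (minus strand) and starts at codon 317 of 340.
Fcer1g activation motif: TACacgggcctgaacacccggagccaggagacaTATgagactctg
Fcgr2b inhibitory motif: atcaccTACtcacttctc
The activation motif has 2 tyrosine codons and the inhibitory motif has 1. The activation motif was found in 1 of 2 coding transcripts of Fcer1g, and the inhibitory motif in 4 of 4 of Fcgr2b. Outside the tails, Fcgr3 and Fcgr2b are close relatives: their coding sequences were 85.92% identical, against 60.53% to 66.16% for the other pairs of receptors. Their longest identical coding run has 129 bases, in the Fcgr2b gene within chr1:170966674-170968081 and in the Fcgr3 gene within chr1:171054167-171057792 (both minus strand, introns left out), and is shown because reads from it cannot be assigned to either gene.
Fcgr2b and Fcgr3 shared run: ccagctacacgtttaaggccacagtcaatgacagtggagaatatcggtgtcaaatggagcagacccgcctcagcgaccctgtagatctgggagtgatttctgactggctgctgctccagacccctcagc
Of all 50-base windows of its transcripts, Fcgr3 shared 10.2% with Fcgr2b, and Fcgr2b shared 4.48% with Fcgr3 and 6.72% with any other gene. Fcgr1, Fcgr4 and Fcer1g shared 0 windows with other genes. The counts of Fcgr3 and Fcgr2b are uncertain for this reason. The percentages are shares of windows, not of reads, and the share of reads affected was not measured. An antisense gene, Gm38204, overlaps exons of Fcgr2b, and the strand setting of the libraries is unknown here.

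All 5 transcripts were more abundant in every old library than in any young library. In the table as a whole, 13.2% of genes had all old values above all young values and 12.8% had them all below. By limma over all genes, 4 of the 5, Fcgr3, Fcgr4, Fcer1g and Fcgr2b, were called higher in old at an adjusted p under 0.05, against 2.71% of all genes (5.25% called in either direction). Fcgr1 was not called. The same 4 genes were higher at an adjusted p under 0.05 by edgeR on recovered reads (2.73% of all genes), by DESeq2 on recovered reads (5.71%) and in the authors' deposited table (5.7%). DESeq2 on recovered reads and the deposited table called 1819 and 1818 genes in either direction. They are nearly the same analysis and not independent results. In whole tissue, more cells of a type and more RNA per cell cannot be told apart.

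**Figure D1:**
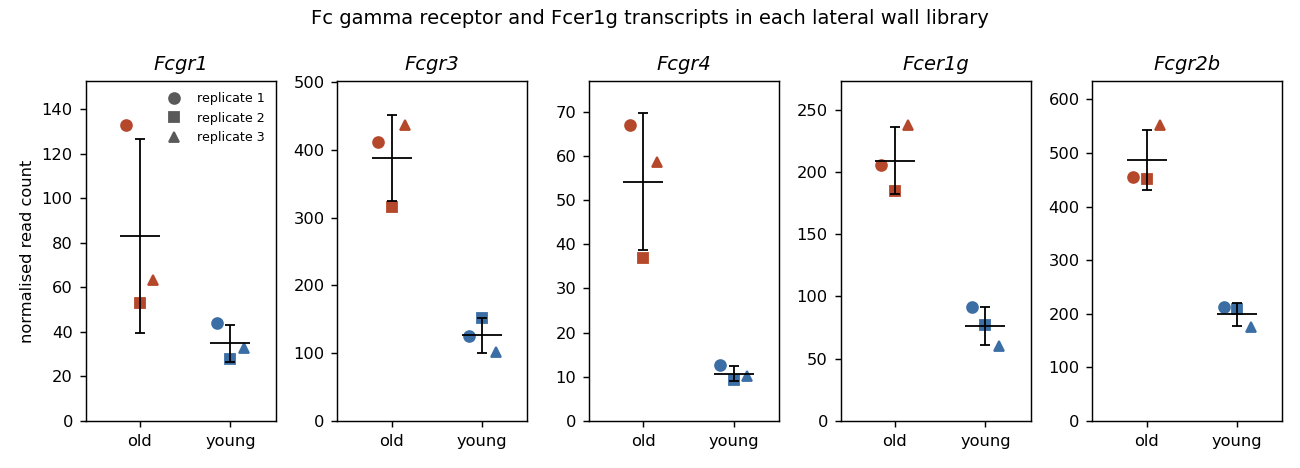
Normalised read counts of the 5 genes in each library, old left of young in each panel; symbols mark the replicate number, horizontal lines the group means and bars the SD (n = 3 mice each). Every old point lies above every young point of the same gene, with the widest old spread in Fcgr1 (52.95 to 132.8 counts) and the lowest old value of Fcgr4 (36.9) above its highest young value (12.6).

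Among the activating receptors, Fcgr3, the receptor on macrophages and NK cells, had 412, 316 and 436 normalised counts in old mice and 125, 152 and 101 in young mice. The lowest old library held more than any young one. Its means were 388 ± 63.7 in old and 126 ± 25.7 in young mice (SD, n = 3 each). The fold change on the log2(value + 1) scale was 1.62 ± 0.22 (SE, 95% interval 1.13 to 2.10, limma adjusted p = 0.00489). Without old replicate 3 it was 1.53 (adjusted p = 0.0212).

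Fcgr4, which binds the mouse IgG2 subclasses, had few reads in young mice. Its normalised counts were 66.9, 36.9 and 58.6 in old mice and 12.6, 9.33 and 10.2 in young mice. The young values rest on 12, 9 and 10 reads. Their exact 95% Poisson intervals (6.20 to 21.0, 4.12 to 17.1 and 4.80 to 18.4 reads) are wider than the spread between these libraries. The young SD below therefore understates the counting error. Its means were 54.1 ± 15.5 in old and 10.7 ± 1.68 in young mice (SD, n = 3 each), a ratio of 5.05, the largest of the 5. The log2 fold change was 2.20 ± 0.36 (SE, 95% interval 1.38 to 3.02, limma adjusted p = 0.0120), and 2.12 without old replicate 3 (adjusted p = 0.0392). Leaving out young replicate 2 (2.12, adjusted p = 0.0519) or young replicate 3 (2.18, adjusted p = 0.0558) ended the call.

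Fcgr1, the high-affinity receptor, had 133, 53.0 and 63.4 normalised counts in old mice and 44.1, 28.0 and 32.7 in young mice. Old replicate 1 stood far above the other old libraries, and old replicate 2 lay close to young replicate 1. The means were 83.1 ± 43.4 in old and 34.9 ± 8.26 in young mice (SD, n = 3 each). The log2 fold change was 1.13 ± 0.38 (SE, 95% interval 0.27 to 2.00), with a limma adjusted p of 0.129. It was 0.74 without old replicate 1 (adjusted p = 0.272), 1.39 without old replicate 2 (adjusted p = 0.0723) and 1.27 without old replicate 3 (adjusted p = 0.152). In the authors' deposited table its fold was 2.38, with an adjusted p of 0.0539.

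Fcer1g, the chain that the activating receptors share, had 206, 184 and 237 normalised counts in old mice and 91.3, 76.8 and 60.2 in young mice. Every old library was above every young one. The means were 209 ± 26.6 in old and 76.1 ± 15.5 in young mice (SD, n = 3 each), and the log2 fold change was 1.46 ± 0.23 (SE, 95% interval 0.94 to 1.98, limma adjusted p = 0.00981). Without old replicate 3 it was 1.36 (adjusted p = 0.0323). Leaving out young replicate 3 ended the call, at 1.30 (adjusted p = 0.0536).

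Fcgr2b, the inhibitory receptor, had 456, 452 and 551 normalised counts in old mice and 213, 210 and 175 in young mice. Both groups were tight, and the inhibitory receptor was higher in old mice along with the activating ones. The means were 486 ± 56.4 in old and 199 ± 21.2 in young mice (SD, n = 3 each). The log2 fold change was 1.28 ± 0.17 (SE, 95% interval 0.91 to 1.66, limma adjusted p = 0.00425), and 1.19 without old replicate 3 (adjusted p = 0.0169). It kept its call in all 6 fits that leave out 1 library.

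**Figure D2:**
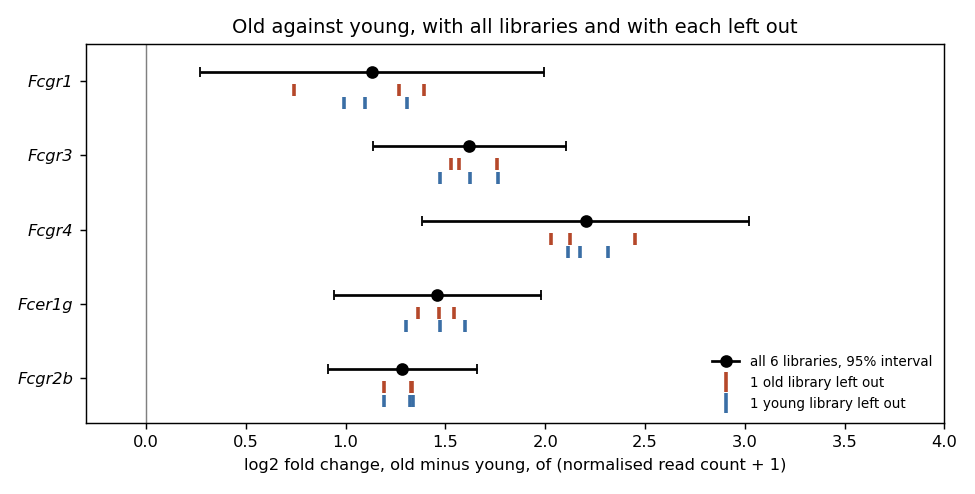
Log2 fold change of each gene, old minus young, from limma on log2(normalised read count + 1); black points and bars show the estimate and 95% interval from all 6 libraries, and ticks show the estimate with 1 old library (upper row) or 1 young library (lower row) left out. Every estimate lies above 0, from 0.74 for Fcgr1 without old replicate 1 to 2.45 for Fcgr4 without old replicate 2.

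Relative to Fcgr2b in the same library, 0 of the 3 activating receptors and the chain passed the limma test, also at an unadjusted p under 0.05 (the smallest was 0.0531, for Fcgr4). In this fit, which sets every gene against Fcgr2b, 84.6% of all other genes were called, 1.04% higher in old and 83.6% lower. Fcgr4 over Fcgr2b was −2.75, −3.58 and −3.21 log2 units in old mice and −3.98, −4.35 and −3.97 in young mice. The groups did not overlap, though how many other genes were apart on this scale was not counted. The difference was 0.92 ± 0.47 (SE, 95% interval −0.01 to 1.85, limma adjusted p = 0.0620). Every gene in this fit carries the same Fcgr2b deviations, and limma pools variance over genes. Its SEs, intervals and p-values therefore do not measure the spread between mice alone. The SDs between mice were 0.42 in old and 0.22 in young, and without trend and robust estimation the limma adjusted p was 0.0121. An exact two-sided permutation test gave p = 0.1, the smallest that 3 against 3 libraries allow. The difference was 1.12 without old replicate 2 (limma adjusted p = 0.0436) and 0.70 without old replicate 1 (adjusted p = 0.228), and with a pseudocount of 10 it was 0.36.

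Fcgr3, the nearest relative of Fcgr2b, differed from it by 0.34 ± 0.27 (SE, 95% interval −0.20 to 0.87, limma adjusted p = 0.235) between old and young mice, with overlapping libraries. Fcer1g over Fcgr2b differed by 0.17 ± 0.30 (SE, 95% interval −0.43 to 0.78, limma adjusted p = 0.589). Fcgr1 over Fcgr2b differed by −0.15 ± 0.39 (SE, 95% interval −0.93 to 0.63, limma adjusted p = 0.721). It was −0.59 without old replicate 1 and turned to 0.06 without old replicate 2 and 0.08 without old replicate 3. These intervals, from the same pooled fit, still hold differences of more than 0.6 log2 units, so equal change is not shown.

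**Figure D3:**
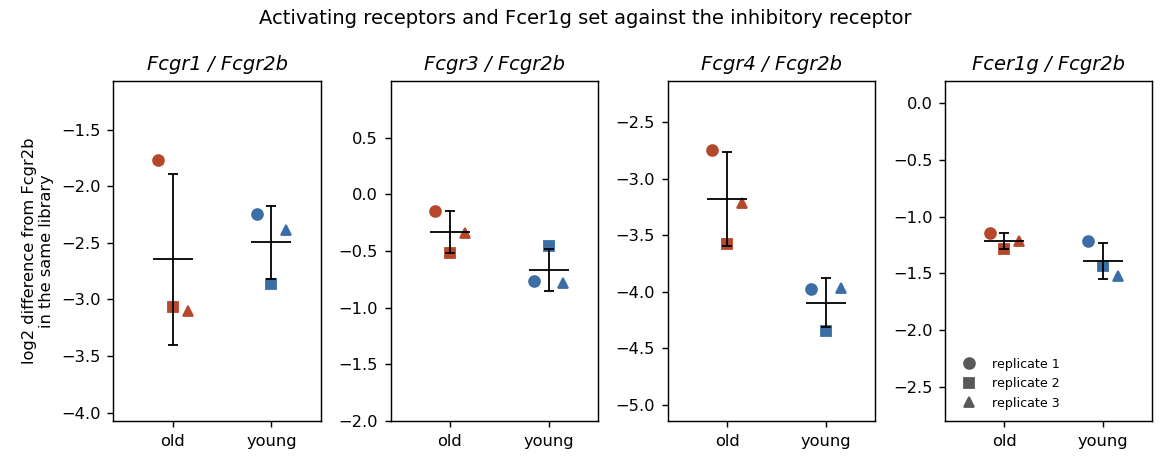
Log2 difference of each activating receptor and of Fcer1g from Fcgr2b in the same library, old left of young; symbols mark the replicate number, lines the group means and bars the SD (n = 3 mice each), and all panels span the same number of log2 units. The groups are apart only in the Fcgr4 panel, with old means of −3.18 against young means of −4.10.

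Summed over Fcgr1, Fcgr3 and Fcgr4, the activating receptors' counts were 1.34, 0.897 and 1.01 times that of Fcgr2b in old mice and 0.852, 0.906 and 0.825 times in young mice. Old replicate 2 lay within the young range. These counts are not corrected for gene length, which is 5790 exon bases for Fcgr2b and 1256 to 2589 for the activating receptors. The ratios, and the shares below, therefore compare libraries and do not give the balance of the receptors. Fcgr4 supplied 10.9%, 9.09% and 10.5% of the activating receptors' reads in old mice and 6.94%, 4.92% and 7.09% in young mice, so its share was higher in every old library. The young shares rest on 12, 9 and 10 reads of Fcgr4. The share of Fcgr3 overlapped, at 67.4% to 78.1% in old and 68.8% to 80.3% in young mice.

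Per kilobase of annotated exon, Fcer1g and Fcgr3 were the most abundant of the 5. Fcer1g stood at 239 ± 30.5 counts per kilobase in old and 87.1 ± 17.8 in young mice, and Fcgr3 at 224 ± 36.7 in old and 72.7 ± 14.8 in young mice (SD, n = 3 each), so these neighbours do not differ beyond their spread in either group. Fcgr2b followed at 84.0 ± 9.74 in old and 34.4 ± 3.67 in young mice. The lowest levels per kilobase were those of Fcgr4, at 43.1 ± 12.3 in old and 8.53 ± 1.34 in young mice, and Fcgr1, at 32.1 ± 16.8 in old and 13.5 ± 3.19 in young mice. Fcgr4 and Fcgr1 overlapped in old mice, and in young mice every Fcgr1 level was above every Fcgr4 level. The place of Fcgr2b depends on the transcript: its level was 137 per kilobase in old and 56.2 in young mice for its longest coding transcript, and 449 in old and 184 in young mice for its shortest, which would put it first.

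Most but not all macrophage markers were higher in old mice. Of 15 pan-macrophage markers, 10 were called higher in old and 0 lower, with a median log2 fold change of 1.05, against −0.00 over all genes tested. Their summed counts were 30128, 30649 and 43135 in old mice and 14444 to 15388 in young mice. Lyz2 alone had 12184, 15278 and 21396 of these in old mice and 1565 to 2093 in young mice, and without it the sums were 17944, 15370 and 21739 in old mice and 12879 to 13419 in young mice. The part of cell number in the receptor values was not tested. Cd68, a lysosomal macrophage protein, Lyz2, lysozyme, Ptprc, the leukocyte antigen CD45, and C1qa, a complement chain, had log2 fold changes of 2.15 ± 0.15, 3.09 ± 0.20, 2.13 ± 0.27 and 1.07 ± 0.14 (SE), and these 4 kept their calls with each library left out. The other 5 of the 15 were not called: Aif1 was at 0.99 ± 0.28, Cd163, a scavenger receptor, at 0.36 ± 0.23, the growth factor receptor Csf1r at 0.14 ± 0.14, the mannose receptor Mrc1 at −0.29 ± 0.16 and the clearance receptor Mertk at −0.59 ± 0.18. All old values of Mertk were below all young values, and 1 marker is lower in the authors' deposited table at an adjusted p under 0.05. The list gave 5 calls without young replicate 3 and 6 without young replicate 2. Over all genes, these fits called 230 and 288 genes, against 898 with all libraries. Here and below, list counts with 1 library left out are to be read beside such totals.

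Set against the mean log2 level of the macrophage markers in the same library, the receptors' old minus young differences were 0.08 for Fcgr1, 0.23 for Fcgr2b, 0.41 for Fcer1g, 0.57 for Fcgr3 and 1.15 for Fcgr4. Fcgr4 lay at −3.91, −4.56 and −4.36 relative to the marker mean in old mice and at −5.28, −5.57 and −5.42 in young mice. Fcgr3, Fcer1g and Fcgr2b also had every old value above every young one on this scale, and Fcgr1 overlapped. How many other genes were apart on this scale was not counted. These are descriptions with no test.

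Other leukocyte markers differed between the old libraries. The 12 neutrophil markers summed to 5573, 808 and 10943 counts in old replicates 1, 2 and 3 and to 427, 358 and 541 in young replicates 1, 2 and 3. They exceeded the young mean by 3.47, 0.71 and 4.41 log2 units in these old libraries, with 2 of 12 called by limma, 4 by edgeR and 12 in the authors' deposited table, and Fcgr3 stood 1.72, 1.34 and 1.80 above and Fcgr4 2.55, 1.70 and 2.36. The limma count of neutrophil markers was 12 without old replicate 2, 0 without young replicate 2 or 3 and 1 without any other library. Over all genes, limma called 898 with all libraries and 1134 without old replicate 2. It called 288 without young replicate 2 and 230 without young replicate 3. Old replicate 2 was the lowest old library for all 5 receptor and chain genes, by little for Fcgr2b. For those 5 genes it was still above all young libraries. By mean log2 level it was also the lowest old library for the neutrophil, monocyte and macrophage markers. By summed counts this held for the neutrophil markers only. Monocyte markers summed to 2914, 4965 and 4110 counts in old replicates 1, 2 and 3. Macrophage markers summed to 30128, 30649 and 43135. In mean log2 level the 10 monocyte markers exceeded the young mean by 2.09, 1.13 and 2.63 units, with 2 called higher by limma. That count was 7 without old replicate 2, 7 by DESeq2 on recovered reads and 1 without any 1 young library.

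NK cell markers, 7 of 10 in the table and 0 called by limma or edgeR (3 higher at an unadjusted p under 0.05, which 10.8% of all genes passed as higher and 10.6% as lower), summed to 33.6 to 83.4 counts in old and 5.19 to 18.9 in young mice, with 1 called without young replicate 1. B and plasma cell markers, 11 of 14 in the table and 3 called higher, had a median log2 fold change of 1.17. They summed to 6728 to 9240 counts in old and 5270 to 7310 in young mice, nearly all from Xbp1, which other secretory cells also express, and without it to 300.6, 431 and 644 counts in old mice and 109 to 131 in young mice. The count was 1 without young replicate 2 or 3. The sinusoidal and lymphatic endothelium list, whose cells can carry Fcgr2b, had 7 of 9 in the table and a median log2 fold change of −0.18, with 0 called by limma or edgeR (2 higher and 2 lower at an unadjusted p under 0.05), and 1 called without old replicate 3. Mast cell and basophil markers, whose cells use the Fcer1g chain, had 5 of 12 in the table and a median of −0.05 (−0.07 without Mcpt8, which had 0 reads in every young library), with 0 called by limma or edgeR (1 higher and 1 lower at an unadjusted p under 0.05) and 2 called without old replicate 2. In the mast cell and basophil list, Kit (means of 1722 in old and 2648 in young mice) and Gata2 (1670 and 1724) held most counts. Cpa3 averaged 6.08 in old and 2.78 in young mice, and Fcer1a and Ms4a2 were not in the table. Whether mast cells differed cannot be read from that list. The 10 dendritic cell markers gave 1 call higher and a median of 0.47, and 2 calls without old replicate 1. What part these cells have in the receptor values was not tested.

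Fcgr1 was highest in old replicate 1, exceeding the young mean by 1.92, 0.61 and 0.87 log2 units in old replicates 1, 2 and 3. Irf7, a transcription factor of the interferon response that was picked for display after its values were seen, showed the same high library. Irf7 had 5902, 1227 and 1263 normalised counts in old mice and 658 to 731 in young mice. It was not called (limma adjusted p = 0.188). Fcgr4 and the NK cell markers (2.23, 1.63 and 1.31) were also highest in old replicate 1. Fcgr3, Fcgr2b, at 1.20, 1.19 and 1.47, and Fcer1g, at 1.44, 1.29 and 1.65, did not have old replicate 1 as their highest library.

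**Figure D4:**
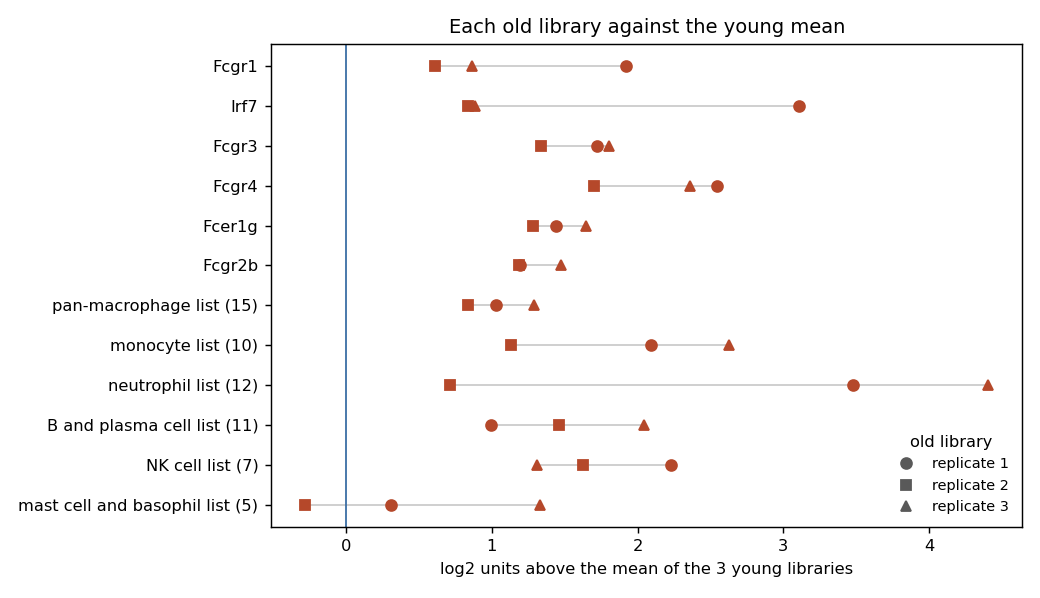
Log2 units by which each old library lay above the mean of the 3 young libraries (vertical line at 0), for the 5 genes, for Irf7 and for the mean of each marker list (number of genes in brackets). Old replicate 1 is highest for Fcgr1 (1.92), Fcgr4 (2.55), Irf7 (3.10) and the NK cell list (2.23), and old replicate 2 is lowest in every row except the B and plasma cell list and the NK cell list.

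Of 29 genes of Fc receptor ITAM signalling, 8 were called higher and 2 lower, and the list's median log2 fold change was 0.02. Tyrobp, a sister chain of Fcer1g that carries an ITAM for other receptors, had the smallest p, with means of 1082 ± 173 in old and 316.6 ± 43.4 in young mice (SD, n = 3 each) and differed by 1.77 ± 0.16 log2 units (SE, limma adjusted p = 0.00134). The Src-family kinases Lyn (0.80 ± 0.14) and Fgr (2.20 ± 0.42), the kinase Tec (0.83 ± 0.15) and Syk (1.62 ± 0.39, limma adjusted p = 0.0490), which docks on the phosphorylated chain, were called too. Pik3r1, a regulatory subunit of phosphoinositide 3-kinase, and the adaptor Shc1 fell by 0.64 and 0.44 on the log2 scale, and were named after their values were seen. With 1 library left out the list gave 1 (without young replicate 3) to 11 (without old replicate 2) calls in either direction. Of the genes named from it by rule, Tyrobp kept its call in all 6 such fits, whereas Lyn lost it without young replicate 2 or 3, Tec without young replicate 3, Fgr without any 1 young library and Syk in 5 of 6, with limma adjusted p-values up to 0.141.

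The ITIM list holds genes that pass on the signal of Fcgr2b and other inhibitory receptors, together with other regulators of such signalling. Of its 11 genes, 0 were called higher and 1 lower by limma, with a median log2 fold change of −0.10. At an unadjusted p under 0.05, 3 were higher and 2 lower (10.8% and 10.6% of all genes), and edgeR on recovered reads also called 0 higher and 1 lower. Inpp5d, the phosphatase that Fcgr2b recruits, had 491.3 ± 182 counts in old and 437.4 ± 56.2 in young mice (SD, n = 3 each), a log2 difference of 0.11 ± 0.24 (SE, limma adjusted p = 0.836). Ptpn6, the phosphatase SHP-1, had 958.7 ± 94.0 in old and 892.2 ± 61.3 in young mice, a difference of 0.10 ± 0.12 (SE, limma adjusted p = 0.691). The adaptor Dok1 fell by 0.67 ± 0.14 (SE, limma adjusted p = 0.0307), a call lost in 5 of the 6 fits with 1 library left out, whereas Dok3 (0.76), Dok2 (1.30) and the receptor phosphatase Ptprj (−0.52) were not called. Both phosphatases are also made by cells without Fcgr2b.

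Downstream of the receptors, 7 of 20 genes of the phagocytic actin machinery and NADPH oxidase were called higher and 0 lower, with a median log2 fold change of 0.80. Cybb, the catalytic subunit of the phagocyte oxidase, had 895, 587 and 1027 normalised counts in old mice and 266, 206 and 236 in young mice, higher by 1.79 ± 0.22 log2 units (SE, limma adjusted p = 0.00319). Myo1g, a class I myosin (2.27 ± 0.35), Ncf4, a cytosolic oxidase subunit (2.05 ± 0.35), and Nckap1l, of the WAVE actin complex (1.16 ± 0.20), were called as well. The list gave 2 calls without young replicate 2 or 3 and 11 without old replicate 2. Cybb and Myo1g kept their calls with each library left out, and Ncf4 and Nckap1l lost theirs without young replicate 2 or 3, with limma adjusted p-values up to 0.0751.

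Of 15 receptors that also use the Fcer1g chain, 10 were in the table, 4 were called higher and 0 lower, and the median log2 fold change was 1.89. It was 1.78 without Gp6 and Pira2, which had 0 reads in every young library. Clec4d, a C-type lectin receptor of macrophages and neutrophils, averaged 178.0 ± 17.4 counts in old and 6.24 ± 5.78 in young mice (SD, n = 3 each), higher by 5.01 ± 0.61 log2 units (SE, limma adjusted p = 0.00392). Clec4e (Mincle, 3.32 ± 0.75), Clec4n (Dectin-2, 2.13 ± 0.36) and Lilra5 (1.94 ± 0.31) were called. Clec4d kept its call with each library left out, Clec4n and Lilra5 lost theirs without young replicate 3 (limma adjusted p = 0.0532 each), and Clec4e lost it in 4 of 6 fits (up to 0.152). The list gave 1 call without young replicate 3.

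Of 17 other inhibitory receptors of myeloid cells in the table, 5 were called higher and 0 lower, with a median log2 fold change of 1.40, and all 17 estimates were above 0. Lilrb4a rose to 358.3 ± 95.8 counts in old, against 62.9 ± 11.3 in young mice (SD, n = 3 each), higher by 2.48 ± 0.25 log2 units (SE, limma adjusted p = 0.00161). Pirb had 92.1, 67.1 and 139 counts in old mice and 16.8, 9.33 and 12.3 in young mice (2.84 ± 0.37), and Cd300lf (2.05 ± 0.32) and Pilra (1.75 ± 0.36) were called. Lilrb4a and Pirb belong to families of near-identical genes, so their reads are uncertain. The list gave 2 calls without young replicate 3 and 9 without old replicate 2. Lilrb4a and Pirb kept their calls with each library left out, Cd300lf lost its call without young replicate 3 (limma adjusted p = 0.0536), and Pilra without young replicate 2 or 3 or old replicate 1 or 2 (up to 0.122).

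**Figure D5:**
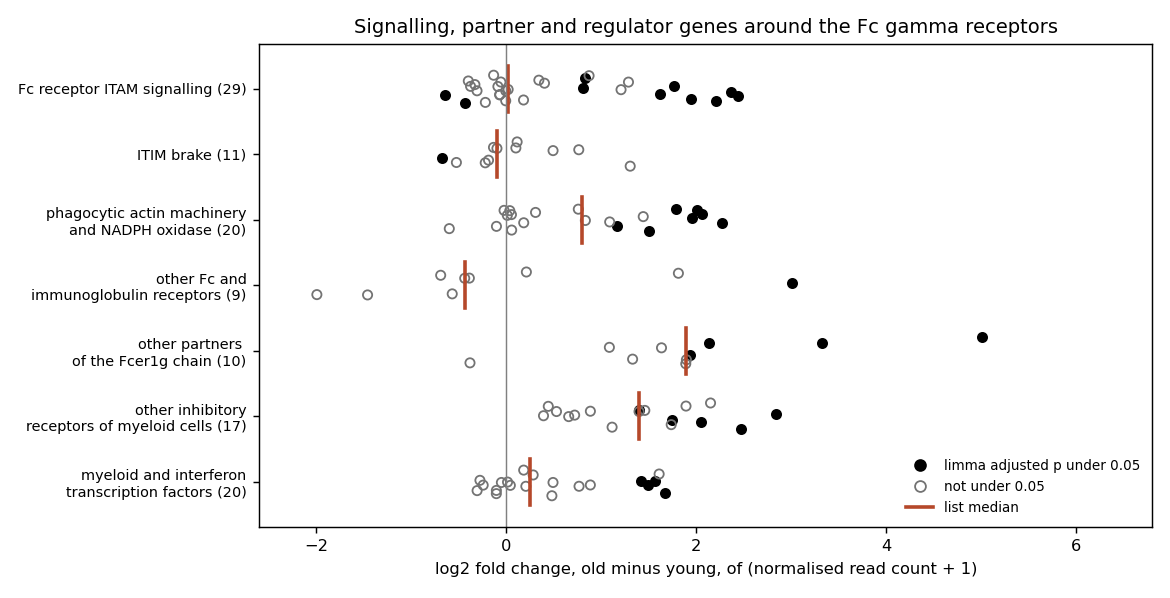
Log2 fold change, old minus young, of each gene of 7 lists around the receptors (number of genes in the table in brackets); filled points passed limma at an adjusted p under 0.05, open points did not, and red bars are list medians. The ITAM list has its median at 0.02 and the ITIM list at −0.10, whereas the lists of chain partners (1.89) and other inhibitory receptors (1.40) lie to the right of 0.

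Of 14 other receptors of antibodies and their relatives, 9 were in the table, 1 was called higher and 0 lower, and the median log2 fold change was −0.44 (−0.41 without Fcamr, which had 0 reads in every old library). Fcgrt, the neonatal Fc receptor that recycles IgG, averaged 4886 ± 980 counts in old and 6319 ± 413 in young mice (SD, n = 3 each), a log2 difference of −0.39 ± 0.14 (SE, limma adjusted p = 0.157), and it was called without old replicate 2 (adjusted p = 0.0254). Fcrls, a macrophage Fc receptor-like gene, had 117, 162 and 178 counts in old mice and 301, 221 and 214 in young mice, with every old value below every young one (−0.69 ± 0.23, limma adjusted p = 0.121). Trim21, the cytosolic antibody receptor, differed by 0.21 ± 0.23 (SE, limma adjusted p = 0.660). Fcrl1, of B cells, was called (3.01 ± 0.70, limma adjusted p = 0.0428) on 9.70 to 25.0 counts in old and 0 to 4.20 in young mice, and lost its call in 4 of 6 fits with 1 library left out. Fcrla, also of B cells, was not called (1.81 ± 0.83).

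Of the list of immunoglobulin chains and Jchain, only Jchain could be read, and the IgG constant genes are not analysed here. Jchain joins IgA and IgM and is not part of IgG, the ligand of these receptors. Jchain had 85.3, 34.0 and 246 counts in old mice and 6.29, 8.30 and 5.11 in young mice, higher by 3.61 ± 0.64 log2 units (SE, limma adjusted p = 0.0178). Its call was lost without any 1 young library (adjusted p up to 0.0827).

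Among 20 myeloid and interferon transcription factors, 4 were called higher and 0 lower, with a median log2 fold change of 0.24. Irf5, of macrophages and B cells, had 191, 173 and 239 counts in old mice and 81.8, 65.3 and 55.1 in young mice (1.57 ± 0.24, limma adjusted p = 0.00870). Ikzf1 (1.67 ± 0.36) and Spi1, which encodes PU.1 (1.49 ± 0.33, limma adjusted p = 0.0344), were called as well. Spi1 had 126, 144 and 249 counts in old mice and 74.5, 64.3 and 40.8 in young mice. Irf5 kept its call with each library left out, whereas Spi1 lost it in 4 of 6 fits (up to 0.141) and Ikzf1 in all but the fit without old replicate 2. The list gave 1 call without young replicate 1 or 3.

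Over the 6 libraries and 13307 genes with a mean count of at least 50, the genes most like Fcer1g by Pearson correlation of log2 values included Tcf19 (r = 0.999), Irf5 (0.998), Ly9 (0.998) and Tlr13 (0.998). Those most like Fcgr2b were Lilrb4a (r = 0.999), Cd48 (0.999), Glipr2 (0.998), Tlr13 (0.998) and Gpr34 (0.997). The points share the split into 3 old and 3 young libraries, so the r values are a description. Tlr13, an endosomal receptor, appears in both. Between members, r over the 6 libraries ranged from 0.76 to 0.99.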

How the data were processed

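The members and gene lists were chosen with earlier results of these data known. RNA was isolated with a miRNeasy kit and sequenced as TruSeq RNA libraries, per the labels' protocols, which give no strand setting. The submitters' processing notes list Partek, TopHat2, DESeq2 and mm10, with no roles. The authors deposited 1 signal per gene and library, the read count divided by a size factor; dividing by the step between low values returned whole reads (tolerance 0.1) for 100% of values under 10000. Reads so recovered summed to 37055355 to 39103397 a library, and the depths hardly differed. The authors' own fold, p-value and adjusted p-value stand in the deposited table (332 genes lack the last). Replicates are separate mice, and no 2 libraries were alike within sampling noise.

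Groups were compared with limma 3.58.1 (R 4.3.3, trend and robust) on log2(value + 1); p-values were adjusted by Benjamini-Hochberg over all 17091 genes, and calls are at 0.05. The script was tested on simulated data. The log2 scale understates changes of genes with few reads. For the comparison with Fcgr2b, its log2 value in the same library was subtracted from every other gene before the same fit, so that all genes share its deviations. Alternatives were quantile normalisation, no trend, pseudocounts of 0.1 and 10, a mean of at least 10, a replicate block, omission of each library in turn, and edgeR 4.0.16 and DESeq2 1.42.0 on recovered reads. Gene length by transcript was added after seeing the data. Besides the members, the text names the 4 genes with the smallest p of each pathway list and of the macrophage markers, direct partners (Syk, Inpp5d, Ptpn6, Tyrobp, Fcgrt, Trim21) and the 5 genes most like Fcer1g and Fcgr2b. Positions come from GENCODE M21 on GRCm38, which matched 16827 symbols. Some genes that this rule took are not reported here.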

Additional observations from a re-analysis of the deposited data

How the results depend on the processing

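Fcgr3 and Fcgr2b were called higher in old mice under all 15 settings tried, Fcer1g under 14 and Fcgr4 under 13, and Fcgr1 under 0 of 15 (limma, edgeR and DESeq2). With 1 library left out the log2 fold change ranged from 1.47 to 1.77 for Fcgr3, 1.19 to 1.34 for Fcgr2b, 1.30 to 1.60 for Fcer1g, 2.03 to 2.45 for Fcgr4 and 0.74 to 1.39 for Fcgr1. Fcgr4 over Fcgr2b ranged from 0.70 to 1.12 with 1 library left out, and was 0.36 with a pseudocount of 10. It passed the threshold without old replicate 2 (1.12, limma adjusted p = 0.0436) and without trend and robust estimation (0.92, limma adjusted p = 0.0121). With 1 library left out, Fcgr1 over Fcgr2b ranged from −0.589 to 0.0763 and reversed without old replicate 2 (0.0608) and without old replicate 3 (0.0763). The 898 genes called became 337 without trend and robust estimation, 1819 by DESeq2 on recovered reads, 1818 in the authors' deposited table, and 230 (without young replicate 3) to 1134 (without old replicate 2) with 1 library left out. The cause was not tested.

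With the replicate number as a block, 406 genes were called, and the members kept their side of the threshold (limma adjusted p = 0.0282 for Fcgr3, 0.0381 for Fcgr4, 0.0429 for Fcer1g, 0.0282 for Fcgr2b and 0.121 for Fcgr1). Old and young libraries of the same number share only that number: their deviations correlated at −0.24, −0.10 and −0.09. Of the values of other named genes under these settings, 1006 kept direction and side, 107 lost and 27 gained the threshold, and 6 reversed. Hdc, a mast cell marker, was at −0.00318 with quantile normalisation. With 1 library left out Hdc ranged from −0.0782 to 0.492, Gata2 from −0.103 to 0.00624, Inpp5d from −0.169 to 0.309 and Trim21 from −0.0817 to 0.412. Of the list counts, 175 stayed within 1.5 times and 80 did not; without trend and robust estimation the ITAM list gave 3 calls and the macrophage list 5, against 10 each. With 3 mice a group and 9 to 12 reads of Fcgr4 in each young library, its size is imprecise.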
